A study of Homo sapiens with 16 samples.

Results

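In MDA-MB-231, a human cell line from a metastatic site of breast cancer, 439 regions carried both of the repressive histone marks H3K9me2 and H3K27me3 in the peak lists of both replicates. They are the H3K9me2 regions, merged over the 2 replicate lists and hit by both, that overlapped by at least 1 bp an H3K27me3 region built in the same way. They make up 14.3% of the 3074 MDA-MB-231 H3K9me2 regions of both replicates on chromosomes 1 to 22 and X, and the 4 H3K9me2 lists of both lines merge into 18327 regions in all. The regions were chosen by their H3K9me2 and H3K27me3 peaks in MDA-MB-231, so their MDA-MB-231 values are given as a description without a test, and tests are kept to the MCF-10A lists and to H3K4me3, which the choice did not use.

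The study mapped H3K4me3, H3K27me3 and H3K9me2 by chromatin immunoprecipitation and sequencing (ChIP-seq) in 2 cultured lines, with 2 biological replicates per mark and line by the labels. MDA-MB-231 is compared here with MCF-10A, a non-tumorigenic breast epithelial line that the labels describe as luminal ductal cells. No treatment is given for either line. MCF-10A grew in a medium with EGF, insulin, cholera toxin and hydrocortisone, while that of MDA-MB-231 is given by reference only, and each stands for 1 cell line rather than for breast tumours or normal breast. The 4 input libraries were not analysed here, so the number of DNA copies of a chromosome segment and the density of a mark on it cannot be told apart.

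H3K27me3 is laid down by Polycomb repressive complex 2 (PRC2), whose catalytic subunit is EZH2 or EZH1, and it covers silent developmental genes in a way that can be reversed as cells change state. H3K9me2 is laid down mainly by the enzymes G9a (EHMT2) and GLP (EHMT1) and is spread over broad stretches of silent chromatin, many of them at the nuclear periphery. H3K4me3 marks active and poised promoters. A region under both repressive marks in a population of cells may carry them on the same nucleosomes, on neighbouring ones, on different alleles or in different cells, and peak lists do not separate these cases.

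The lists held 5045 to 10656 peaks for H3K9me2, 15568 to 16776 for H3K4me3 and 8470 to 30496 for H3K27me3. The shortest H3K27me3 list was replicate 1 of MDA-MB-231, with 8470 peaks against 30496 in replicate 2, and it limits every count of regions with both marks: without it the rule finds 1320 regions. The files give no read counts, so the depth behind a peak is unknown, and all positions are on hg19. Genes are not named, since an hg19 annotation was not used here.

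The regions with both marks were wider than the other H3K9me2 regions, which the rule itself favours, since a longer region touches H3K27me3 more easily. Their median width was 3111 bp, with a range of 1023 to 15119 bp and 1.63 Mb in all, against a median of 2442 bp and a range of 709 to 18574 bp for the 2635 other H3K9me2 regions of the same line. H3K27me3 took up only a part of most of them. The H3K27me3 regions of both replicates lay under a median of 44.6% of a region's length, with the middle 80% of regions between 20.3% and 85.1%. In 178 regions (40.5%) they covered at least 50% of the length, and in 4 the whole of it. A single H3K27me3 region was present in 388 of the 439, and 51 held several, up to 4. Seen from the other mark, 492 of 3873 MDA-MB-231 H3K27me3 regions (12.7%) touched a region with both marks.

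The peaks of the 2 marks seldom shared both edges. In 37 of the regions (8.43%) an H3K9me2 peak and an H3K27me3 peak began within 200 bp of each other and also ended within 200 bp of each other. The peaks of the other regions had no such pair of matching ends. Median peak width in MDA-MB-231 was 734 and 562 bp for H3K27me3, against 2199 and 1871 bp for H3K9me2. Peaks of such unlike width can seldom match at both ends, so the low share is not read as a trait of the regions.

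At the threshold of the rule, the smallest overlap was 4 bp, in the region on chromosome 7 from 155313675 to 155315605, followed by overlaps of 12 and 27 bp. Just outside it, an H3K9me2 region on chromosome 11 from 45679207 to 45682017 lay 13 bp from an H3K27me3 region, and the next 2 lay 20 and 26 bp away. As the regions are merged over replicates, 6 of the 439 had no direct overlap with a peak of H3K27me3 replicate 1 and 1 had none with replicate 2.

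By the score that the authors gave each peak, ranked within its own list, the best H3K9me2 peak of a region ranked higher than in the others. The regions were also wider and can hold more peaks, which favours a higher best rank, and this was not adjusted for. The median percentile of a region's best peak was 80.2 and 73.3 in replicates 1 and 2 of H3K9me2, against 64.3 and 62.0 in the other H3K9me2 regions. For H3K27me3 the medians were 69.95 and 92.4. The regions also varied widely, since the lowest best percentile was 0.163 and 0.0595 in the H3K9me2 lists, and 29 of the 439 had a peak with a score of at least 100 in all 4 lists.

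The region with the highest lowest percentile lay on chromosome 19 from 8851342 to 8856406. H3K27me3 covered 99.6% of it in MDA-MB-231, its best peaks stood at percentiles 99.9 and 99.8 for H3K9me2 and 99.95 and 99.98 for H3K27me3, and no MCF-10A list of either repressive mark had a peak there. The second, on chromosome 7 from 100637660 to 100648931, was shared by the lines. H3K9me2 cover was 98.5% and 96.4% in MDA-MB-231, against 88.6% and 88.1% in MCF-10A. H3K27me3 cover was 76.4% and 83.2% in MDA-MB-231, against 75.5% and 79.6% in MCF-10A.

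The third, on chromosome 9 from 140777030 to 140786238, differed in 1 of the 2 marks. H3K27me3 cover was 66.9% and 79.7% in MDA-MB-231, against 69.4% and 54.03% in MCF-10A. H3K9me2 cover was 100% and 96.3% in MDA-MB-231, against 14.2% in replicate 1 and 0% in replicate 2 of MCF-10A. The fourth, on chromosome 1 from 2583015 to 2588812, held the highest-scoring H3K27me3 peak of both MCF-10A lists and also lay under H3K9me2 there, over 94.8% and 93.9% of its length. The fifth, on chromosome 8 from 86743966 to 86755880, lay under both marks in all 8 lists, with H3K27me3 over 21.7% and 34.0% of it in MDA-MB-231, against 31.9% and 34.5% in MCF-10A. These 5 regions therefore included 3 with both marks in every list, 1 with mainly H3K27me3 in MCF-10A and 1 without either mark there.

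In MCF-10A the regions with both marks in MDA-MB-231 carried H3K27me3 more often, and H3K9me2 less often, than the other MDA-MB-231 H3K9me2 regions. An MCF-10A H3K27me3 peak overlapped 50.6% of them in replicate 1 (222 of 439, exact Clopper-Pearson 95% interval 45.8 to 55.3%) and 46.0% in replicate 2 (202 of 439, 41.3 to 50.8%). The other H3K9me2 regions had 20.3% and 20.1%. The difference was 28.1 ± 3.11 percentage points (SD over the 2 MCF-10A lists), or a ratio of 2.39. Both lists were on the same side, and the two-sided exact sign-flip permutation test over these 2 lists gave p = 0.5, the smallest p it allows.

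An MCF-10A H3K9me2 peak overlapped 28.2% of the regions in replicate 1 (124 of 439, 24.1 to 32.7%) and 23.2% in replicate 2 (102 of 439, 19.4 to 27.5%), against 43.1% and 38.6% of the other H3K9me2 regions. The difference was -15.1 ± 0.377 percentage points (SD, n = 2 lists), a ratio of 0.630, again with p = 0.5 in the exact permutation test, the smallest possible. Intervals cover counting error only, and neighbouring regions are not independent. With 2 lists a side, neither difference can pass a threshold of 0.05.

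**Figure D1:**
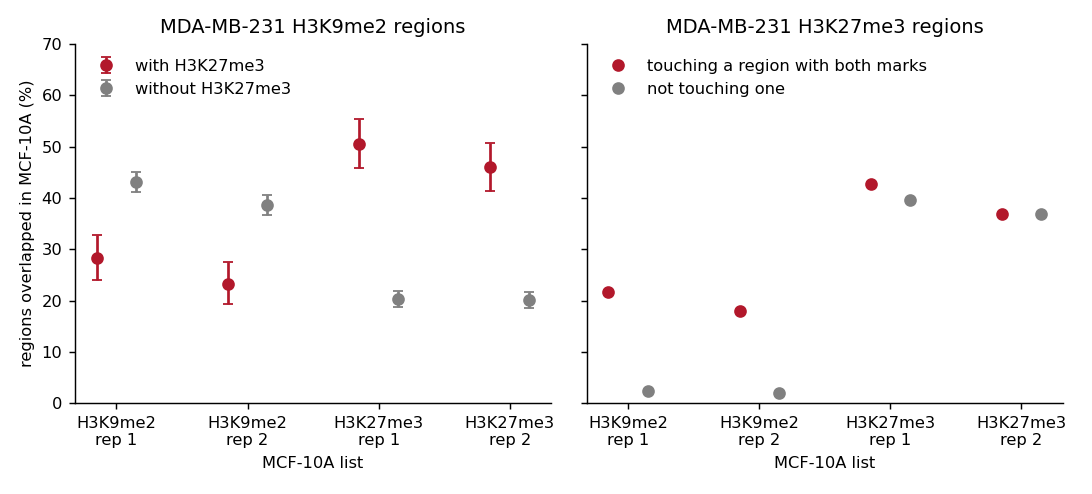
The share of MDA-MB-231 regions overlapped by each MCF-10A list of a repressive mark (y axis, %). Left, H3K9me2 regions with H3K27me3 (red, n = 439) beside those without (grey, n = 2635), with exact 95% intervals; right, H3K27me3 regions that touch a region with both marks (red, n = 492) beside those that do not (grey, n = 3381), with no interval drawn. On the left the red points lie below the grey ones for H3K9me2 (28.2% and 23.2% against 43.1% and 38.6%) and above them for H3K27me3, and on the right the points differ by less for H3K27me3 than for H3K9me2.

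The direction was the same in covered bases and in regions of 2 to 4 kb. MCF-10A H3K27me3 peaks covered 19.9% and 18.4% of the bases in the regions with both marks, against 6.95% and 7.17% in the others. MCF-10A H3K9me2 peaks covered 18.0% and 14.8%, against 32.3% and 28.8%. Among regions of 2 to 4 kb the differences in overlap were 27.05 points for H3K27me3 and -14.4 points for H3K9me2. Widths were not matched within this band, so the part of width in the differences was not tested.

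Within single chromosomes the picture was similar. On each of the 13 chromosomes with at least 10 regions with both marks, these were overlapped by MCF-10A H3K27me3 more often than the other H3K9me2 regions of that chromosome, in both lists. MCF-10A H3K9me2 overlapped them less often on 11 of the 13 chromosomes in replicate 1, chromosomes 8 and 9 being the exceptions, and on 12 in replicate 2, with chromosome 1 as the exception. Some of these gaps were small. On chromosome 6 the shares were 27.1% and 27.1%, against 29.3% and 27.4% of the other H3K9me2 regions, and on chromosome 1 they were 51.7% and 48.3%, against 52.8% and 45.6%.

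Set against H3K27me3 regions in place of H3K9me2 regions, the same loci looked different. Of the 492 MDA-MB-231 H3K27me3 regions that touched a region with both marks, 42.7% and 36.8% were overlapped by MCF-10A H3K27me3 in replicates 1 and 2. Of the 3381 that touched none, 39.6% and 36.9% were, a difference of 3.08 points in replicate 1 and of -0.0644 points in replicate 2. MCF-10A H3K9me2 overlapped 21.7% and 17.9% of the touching H3K27me3 regions, against 2.43% and 1.92% of the others. The median widths of the 2 sets were 1301.5 and 1076 bp.

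Taking the replicates together, 166 of the 439 regions (37.8%, 33.3 to 42.5%) were overlapped by H3K27me3 in both MCF-10A lists, against 12.3% of the other H3K9me2 regions and a background of 16.0% over all 3074. H3K9me2 was present in both MCF-10A lists at 89 regions (20.3%, 16.6 to 24.3%), against 33.7% of the others and 31.8% over all. Both marks were present in all 4 MCF-10A lists at 44 regions (10.02%), against 4.55% of the others and 5.34% over all. None of the 4 lists had a peak at 129 regions (29.4%), against 38.5% of the others and 37.2% over all.

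H3K27me3 without H3K9me2 was a frequent state of the regions in MCF-10A. H3K27me3 in both lists with H3K9me2 in neither was seen at 103 regions (23.5%, 19.6 to 27.7%), against 6.11% of the others and 8.59% over all. The reverse state, H3K9me2 in both lists with H3K27me3 in neither, was seen at 27 (6.15%, 4.09 to 8.82%), against 23.7% of the others and 21.2% over all. A further 70 regions (15.9%) had H3K27me3 in 1 MCF-10A list and no H3K9me2, against 7.36% of the others. H3K9me2 in 1 list with no H3K27me3 was seen at 25 (5.69%), against 9.75% of the others.

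The same rule applied to MCF-10A gave 460 regions with both marks among 6103 H3K9me2 regions of both replicates (7.54%), with a median width of 2185.5 bp. Loci common to the 2 sets were few, but more frequent than among the other MDA-MB-231 H3K9me2 regions. Of the MDA-MB-231 regions 37 (8.43%) overlapped an MCF-10A region with both marks, against 4.06% of the other MDA-MB-231 H3K9me2 regions. Of the MCF-10A regions 39 (8.48%) overlapped an MDA-MB-231 one, a share for which no comparison set was counted.

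The strongest shared loci by rank in MCF-10A included the regions on chromosome 1 from 2583015 and on chromosome 7 from 100637660 described above. The next was on chromosome 1 from 148901238 to 148904161, where H3K27me3 covered 18.9% and 68.4% in MDA-MB-231, against 97.3% and 89.6% in MCF-10A. Its best H3K27me3 peak ranked at percentile 3.64 in the short MDA-MB-231 replicate 1, so its place among the regions with both marks rested on a weak peak there. A pair followed on chromosome 6, from 161037001 to 161041076 and from 161047758 to 161051276, with MCF-10A H3K9me2 over 100% of each in both lists and H3K27me3 over 92.2% to 98.8%.

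H3K4me3 was nearly absent from the regions with both marks in both lines. Peaks of H3K4me3 overlapped 1 region (0.228%) in each MDA-MB-231 list, against 3 (0.683%) and 5 (1.14%) in the MCF-10A lists, and 433 of the 439 had none in any of the 4 lists. The difference between the lines was -0.68 percentage points (n = 2 lists each, two-sided exact permutation p = 0.33, the smallest p that 2 against 2 lists allow). Within 5 kb the shares were 1.14% and 0.911% in MDA-MB-231, against 2.05% and 2.28% in MCF-10A, with the same p = 0.33 by the exact permutation test. At least 1 MDA-MB-231 H3K4me3 list overlapped 0.228% of the regions, against a background of 0.943% over all H3K9me2 regions, and at least 1 MCF-10A list overlapped 1.37%, the same as the background of 1.37%.

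The median distance from a region to the nearest H3K4me3 peak was 105.1 and 100.4 kb in MDA-MB-231 and 92.6 and 90.4 kb in MCF-10A. For the other H3K9me2 regions it was 94.98 and 95.6 kb in MDA-MB-231 and 95.3 and 88.7 kb in MCF-10A.

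Only the region on chromosome 20 from 37435112 to 37437377 met the rule of H3K4me3 in both lists of a line and in none of the other. The MCF-10A H3K4me3 peaks overlapped 1.94% and 3.97% of it, at its edge, no MDA-MB-231 H3K4me3 list had a peak there, and neither repressive mark was present there in MCF-10A. The other 5 regions with H3K4me3 are named after their values were seen. The one on chromosome 9 from 67790546 to 67792377 lay wholly under H3K4me3 in all 4 lists, over 100% of its length. Its best H3K27me3 peaks ranked at percentiles 13.6 and 22.2 in MDA-MB-231, and no MCF-10A repressive list had a peak there. The remaining 4, on chromosome 1 from 2583015 and from 16860621, on chromosome 2 from 90479682 and on chromosome 10 from 1280865, each had H3K4me3 in 1 MCF-10A list only, over 5.31% to 27.8% of their length, and lay under both repressive marks in all 4 MCF-10A lists.

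Over wider windows, H3K4me3 could be tested with limma across 2382 bins of 1 Mb. Of the 216 bins that held a region with both marks, 53 (24.5%) were higher in MDA-MB-231 at an adjusted p under 0.05, against a background of 17.9% of all bins, and 31 (14.4%) were higher in MCF-10A, against 17.1%. With coverage not scaled to the list total the counts were 32 (14.8%, background 14.4%) and 21 (9.72%, background 10.9%), and without MCF-10A replicate 1 they were 30 (13.9%, background 12.5%) and 25 (11.6%, background 9.53%), so these bins stood near the background under both settings. The median log2 ratio was 0.04 in these bins and 0.01 in all bins. On chromosome 20, which held the most regions, more of these bins were higher in MDA-MB-231 than in MCF-10A. The share over all bins of chromosome 20 is not given here, so this is not read as a trait of the bins with regions. The part of that chromosome in the count was not tested.

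The bin with the smallest p among those higher in MDA-MB-231 lay on chromosome 7 from 155000001 to 156000000 and held 6 regions with both marks. Its H3K4me3 cover was 551 and 535 bp per Mb of list total in MDA-MB-231, against 276 and 255 in MCF-10A with a log2 ratio of 1.00 (SE 0.067) and a limma adjusted p = 0.000439. Bins on chromosome 9 from 137000001 and from 135000001 had log2 ratios of 0.90 and 0.59 (limma adjusted p = 0.000687 and 0.000852). Lower in MDA-MB-231 were bins on chromosome 11 from 1000001, chromosome 6 from 27000001 and chromosome 5 from 180000001, with log2 ratios of -0.97, -0.71 and -0.53 (limma adjusted p = 0.000706, 0.000853 and 0.000663). Each of these 5 other bins held 1 region with both marks.

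The neighbourhood of the regions with both marks also carried more of both marks. From 10 to 50 kb beyond their edges, MDA-MB-231 H3K9me2 covered 11.996% and 8.50% of bases, against 6.80% and 4.73% around the other H3K9me2 regions, and MDA-MB-231 H3K27me3 covered 5.33% and 15.6%, against 1.88% and 5.62%. The rule used these MDA-MB-231 lists, and the flanks can hold other regions with both marks, so these values are a description only. MCF-10A H3K27me3, which the rule did not use, covered 6.34% and 6.32% of the same flanks, against 3.16% and 3.17%. MCF-10A H3K9me2 covered 2.72% and 2.25%, against 2.08% and 1.79%, so the lower share of H3K9me2 seen inside the regions was not seen in their flanks. H3K4me3 covered less of the flanks, at 0.496% to 0.565% over the 4 lists against 0.671% to 0.754%.

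**Figure D2:**
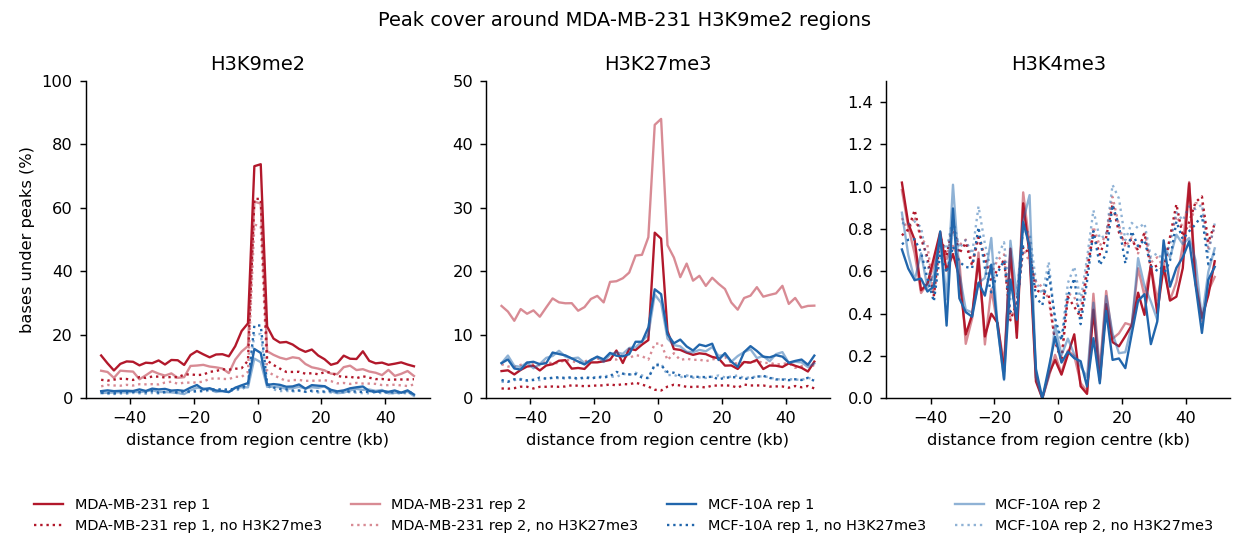
Mean share of bases under peaks (y axis, %) in 2 kb steps up to 50 kb from the centre of MDA-MB-231 H3K9me2 regions (x axis, kb), for each mark and list. Solid lines show the 439 regions with both marks and dotted lines the 2635 without H3K27me3, red for MDA-MB-231 and blue for MCF-10A, with replicate 2 paler. Solid blue H3K27me3 lines rise at the centre and stay above the dotted blue ones across the window, and H3K4me3 dips towards the centre.

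The regions with both marks were spread unevenly over the chromosomes. Chromosome 20 held 98 of the 439 (22.3%), or 15.6 per 10 Mb, although it makes up 2.07% of the span, followed by chromosome 11 with 60 (13.7%) and chromosome 6 with 48 (10.9%). These 3 chromosomes held 206 regions (46.9%), against 30.4% of all MDA-MB-231 H3K9me2 regions and 11.3% of the MCF-10A regions with both marks, on 12.2% of the span. Chromosomes 13 and 16 held none, but had only 7 and 13 MDA-MB-231 H3K9me2 regions of both replicates. Of the H3K9me2 regions of both replicates, 26.3% on chromosome 20 and 22.6% on chromosome 6 carried both marks, against 14.3% over the genome.

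The MCF-10A regions with both marks had another map. Chromosome 8 held 12 of the 439 MDA-MB-231 regions (2.73%), against 90 of the 460 MCF-10A regions (19.6%). Chromosome 16 held 0 in MDA-MB-231, against 35 in MCF-10A. Chromosome 20 held 98 in MDA-MB-231, against 11 (2.39%) in MCF-10A. All H3K9me2 regions of both replicates differed in the same directions. They numbered 98 in MDA-MB-231 against 714 in MCF-10A on chromosome 8, and 13 against 379 on chromosome 16. On chromosome 20 they numbered 372 against 113. The counts of regions with both marks are therefore not read apart from those of H3K9me2.

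The same contrast ran through the single lists of the repressive marks. Chromosome 20 held 11.7% and 11.1% of H3K9me2 peaks in MDA-MB-231, against 1.94% and 1.78% in MCF-10A, and 12.4% and 10.2% of H3K27me3 peaks in MDA-MB-231, against 4.54% and 4.62% in MCF-10A. For H3K4me3 the shares of peaks were alike, at 2.51% and 2.53% in MDA-MB-231, against 2.49% and 2.40% in MCF-10A. Chromosome 8 held 3.30% and 3.41% of H3K9me2 peaks in MDA-MB-231, against 11.1% and 12.1% in MCF-10A, and 3.52% and 3.58% of H3K4me3 peaks in MDA-MB-231, against 3.40% and 3.44% in MCF-10A. As the inputs were not analysed, the part of chromosome copy number in the repressive lists was not tested.

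**Figure D3:**
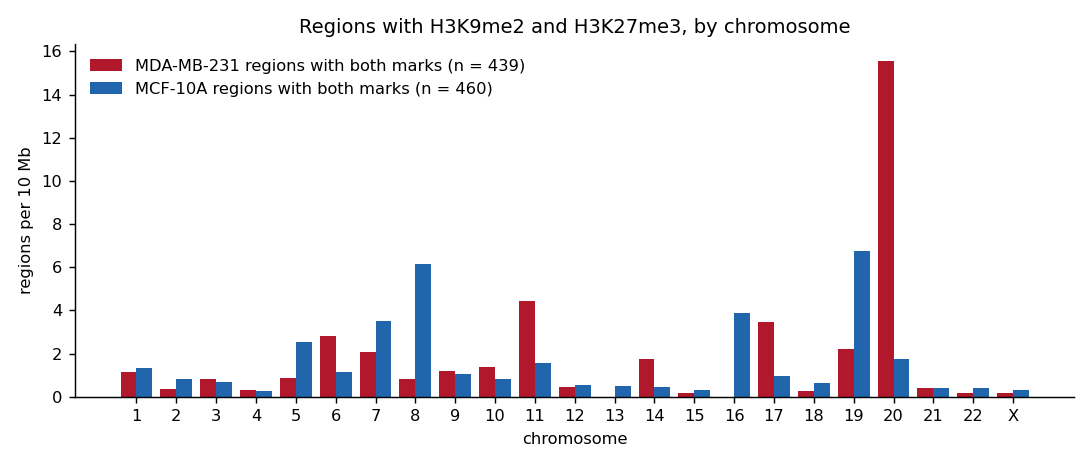
Regions with both repressive marks per 10 Mb of each chromosome (y axis) in MDA-MB-231 (red, n = 439) and MCF-10A (blue, n = 460). The red bar of chromosome 20 stands at 15.6 per 10 Mb, and the blue bars are tallest on chromosomes 19 and 8.

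Along the chromosomes, regions with both marks were joined into a cluster where the gap to the next was at most 100 kb. This gave 263 clusters: 194 regions (44.2%) stood alone, 62 were in 31 pairs, 84 were in 26 clusters of 3 or 4, and 99 (22.6%) were in 12 dense blocks of at least 5. The number of blocks rested on the lists: it was 52 without MDA-MB-231 H3K27me3 replicate 1, 22 and 20 without H3K9me2 replicates 1 and 2, and 0 with a score of at least 100. The median gap between neighbours was 244 kb, and 42.1% of gaps were at most 100 kb. The other 2635 H3K9me2 regions had a median gap of 116 kb, and 105 blocks held 846 of them (32.1%). Their larger number by itself shortens gaps and favours blocks. As the sets were not matched for number, stronger or weaker clustering is not read from this. The 460 MCF-10A regions with both marks, a set of similar size, had a median gap of 1023 kb and 8 blocks that held 45 of them (9.78%). None of the 8 shared a base with the 12 dense blocks of MDA-MB-231. Both sets of blocks take up a small part of the genome, so this is not read as a difference between the lines. Some of the 8 did overlap MDA-MB-231 regions with both marks. These lay on chromosome 6 from 161033549, chromosome 7 from 100607312 and chromosome 1 from 2583317 and from 148901635.

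Clustered regions were followed in MCF-10A as a class of their own. MCF-10A H3K9me2 overlapped 18.2% and 15.2% of the 99 regions in dense blocks, against 34.0% and 27.8% of the 194 that stood alone, and pairs and clusters of 3 or 4 lay between, at 21.0% to 29.03%. MCF-10A H3K27me3 did not follow this order, with 54.5% and 44.4% in dense blocks against 47.9% and 46.9% of those alone. All 4 MCF-10A repressive lists overlapped 3 of the 99 regions in dense blocks (3.03%), against 24 of the 194 alone (12.4%). The 6 regions with H3K4me3 in any list all stood alone. Median width was 3801 bp in dense blocks and 2617 bp for those alone. Regions of a block are neighbours and 5 of the 12 blocks lay on chromosome 20, so the classes were described and not tested.

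The largest dense block lay on chromosome 20 from 46749447 to 47222036, 473 kb long, with 15 regions with both marks and 14 other H3K9me2 regions. MDA-MB-231 H3K9me2 covered 32.7% and 18.1% of it, against 1.70% and 0.635% in MCF-10A. H3K27me3 cover was 10.2% and 27.1% in MDA-MB-231, against 14.3% and 15.3% in MCF-10A. Of its 15 regions, 9 were overlapped by H3K27me3 in both MCF-10A lists and 1 by H3K9me2 in both. The block was chosen by its MDA-MB-231 peaks, so no contrast between the lines is read from it. In MCF-10A, H3K27me3 covered more of it than H3K9me2 did.

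The second block lay on chromosome 6 from 40432941 to 40785359, 352 kb long, with 14 regions that made up 31.9% of its length and included the widest of all, at 15119 bp. MDA-MB-231 H3K9me2 covered 55.9% and 28.7% of it, against 1.75% and 1.05% in MCF-10A. H3K27me3 cover was 10.5% and 28.8% in MDA-MB-231, against 2.65% and 4.30% in MCF-10A. The MCF-10A cover of both marks was above that line's genome-wide cover. The genome-wide values were 0.628% and 0.515% for H3K9me2 and 0.710% and 0.704% for H3K27me3.

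A further 2 blocks, of 9 regions each, lay on chromosome 6. In the one from 41121012 to 41353358, H3K9me2 covered 38.8% and 26.3% in MDA-MB-231, against 2.28% and 2.13% in MCF-10A, and H3K27me3 covered 11.2% and 31.3%, against 9.84% and 9.99%. In the one from 33843417 to 34103222, H3K9me2 covered 17.3% and 13.6% in MDA-MB-231, against 1.81% and 2.50% in MCF-10A, and H3K27me3 covered 11.7% and 47.1%, against 10.8% and 10.3%. In both, MCF-10A H3K27me3 stood close to the value of the short MDA-MB-231 replicate 1 and well below replicate 2.

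Blocks of 8 regions lay on chromosomes 20, 11 and 7. On chromosome 20 from 31545671 to 31669851, H3K9me2 covered 27.4% and 39.5% in MDA-MB-231, against 3.34% and 0% in MCF-10A, while H3K27me3 covered 12.9% and 45.7%, against 8.03% and 5.48%. On chromosome 11 from 117320005 to 117524740, it covered 23.02% and 14.7% in MDA-MB-231, against 0.915% and 0.731% in MCF-10A, while H3K27me3 covered 11.04% and 42.9%, against 14.6% and 12.6%. On chromosome 7 from 150443857 to 150652101, H3K9me2 covered 25.9% and 16.3% in MDA-MB-231, against 5.94% and 2.04% in MCF-10A, while H3K27me3 covered 8.30% and 19.5%, against 5.05% and 6.37%. The eighth block, on chromosome 20 from 46479965 to 46587538, held 7 regions and no H3K9me2 peak in either MCF-10A list, with MDA-MB-231 H3K9me2 over 28.3% and 19.3% of it. Its H3K27me3 cover was 16.7% and 30.4% in MDA-MB-231, against 3.25% and 4.15% in MCF-10A.

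**Figure D4:**
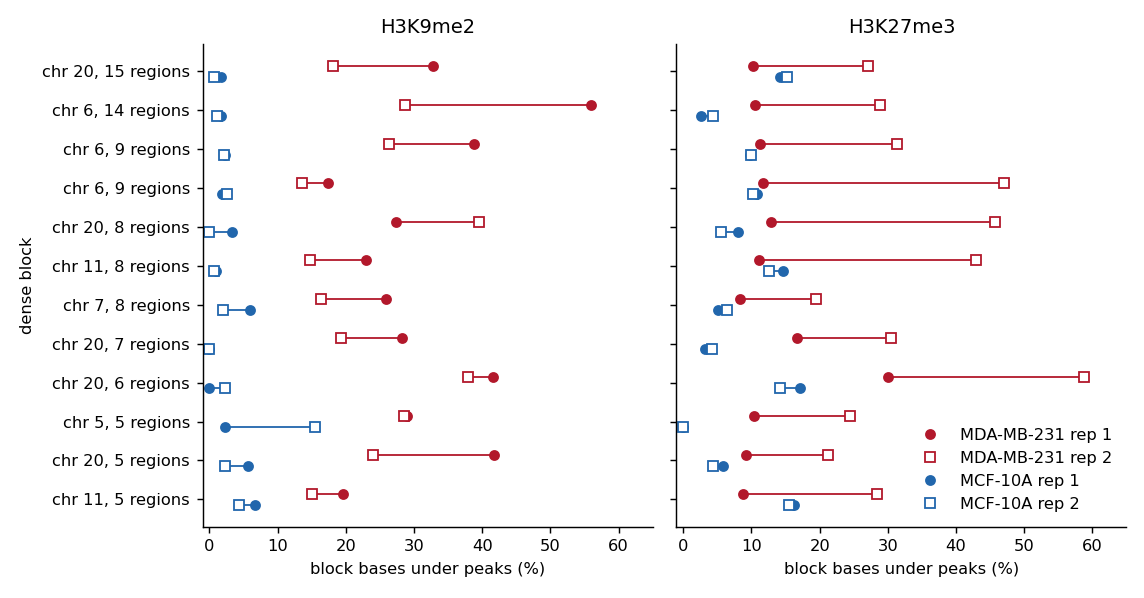
Share of each dense block's bases under H3K9me2 peaks (left) and H3K27me3 peaks (right) (x axes, %), one row per block in order of the number of regions with both marks, red for MDA-MB-231 above blue for MCF-10A, with a line joining replicate 1 (filled circle) and replicate 2 (open square). The blocks were chosen by the MDA-MB-231 peaks of both marks, which favours high red values. The blue points lie mostly near 0 for H3K9me2 and further right for H3K27me3.

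Over the 12 blocks, 2397 kb in all, MDA-MB-231 H3K9me2 covered 32.5% and 21.6%, as the choice of blocks requires, against 2.61% and 2.03% in MCF-10A. The genome-wide cover of the MCF-10A H3K9me2 lists was 0.628% and 0.515%. H3K27me3 covered 11.2% and 32.5% of the blocks in MDA-MB-231, against 9.65% and 9.70% in MCF-10A, whose genome-wide cover was 0.710% and 0.704%. The blocks therefore held both MCF-10A repressive marks above their genome-wide cover, with less H3K9me2 than H3K27me3. The choice of blocks also favours high MDA-MB-231 H3K27me3 values, so no contrast between the lines is read from them. In 3 blocks, the largest block on chromosome 20 and both blocks on chromosome 11, the short MDA-MB-231 replicate 1 lay below MCF-10A. The block on chromosome 5 from 17517566 to 17599802, named after its values were seen, was the only one without an H3K27me3 peak in either MCF-10A list, and MCF-10A H3K9me2 covered 2.22% and 15.4% of it.

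None of the 12 blocks held an H3K4me3 peak in MDA-MB-231. In MCF-10A, 1 block held a single H3K4me3 peak, in replicate 1 only: it was the largest block, where the peak took up 0.0508% of the length. The distance from a block's edge to the nearest MDA-MB-231 H3K4me3 peak of replicate 1 ran from 19.7 kb for the block on chromosome 7 to 348 kb for the block of 7 regions on chromosome 20.

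**Figure D5:**
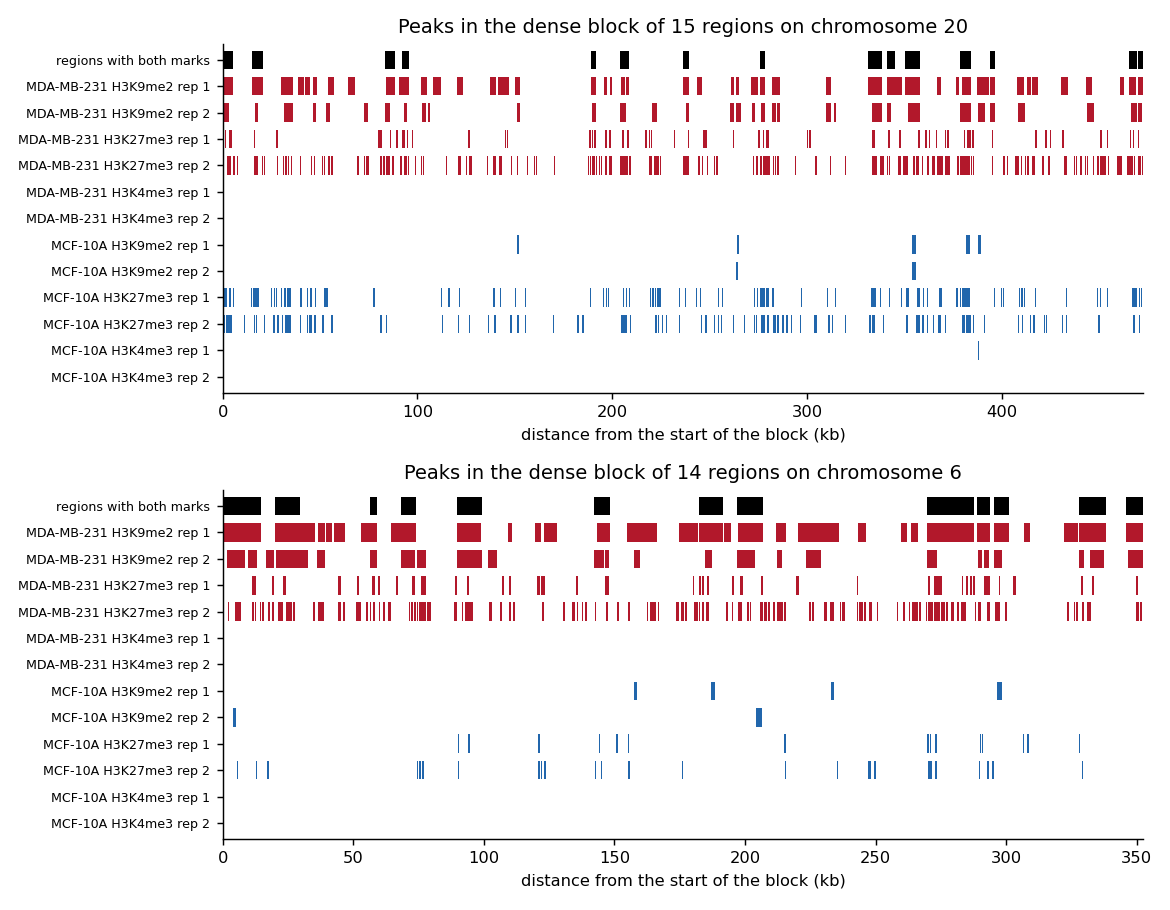
Peaks of each list (rows) along the 2 largest dense blocks, with distance from the block's start (x axis, kb), black for the regions with both marks, red for MDA-MB-231 and blue for MCF-10A. In the block of 15 regions on chromosome 20 MCF-10A H3K27me3 peaks run along the block with few H3K9me2 peaks. In the block of 14 regions on chromosome 6, MCF-10A peaks number 4 and 2 for H3K9me2 and 15 and 25 for H3K27me3.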

How the data were processed

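ChIP-seq peak lists of 12 libraries were used, 1 per replicate. The labels gave the mark and line of each. Per the submitters' processing notes the tools were CASAVA 1.6, Bowtie2, MACS 1.4 and bedtools with hg19, without their settings. Each deposited peak has a score from the authors, at least 50, whose scale is not given. Scores served to rank peaks inside a list and as a filter. Read counts per peak were not used here, depth is unknown, and the number of replicates limits the precision. Peaks on Y and unplaced contigs (0.222% to 0.727% of a list) were left out. Peaks of a mark and line were merged where they shared at least 1 bp, and regions hit by both replicates were kept. Coordinates count from 1.

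The members, lists and tests were chosen with earlier results of these data known. Shares carry exact Clopper-Pearson 95% intervals. Overlap in MCF-10A was tested by an exact sign-flip permutation over lists, and H3K4me3 overlap between lines by an exact permutation. H3K4me3 bins of 1 Mb covered in at least 2 lists were tested with limma 3.58.1 (trend, empirical Bayes, R 4.3.3) on log2 of covered bp per Mb of list total plus a pseudocount of 10, a scale that understates changes of low bins, with Benjamini-Hochberg adjustment at 0.05. Other steps used Python 3.11.15, NumPy 2.4.6, SciPy 1.17.1 and matplotlib 3.10.9. On simulated data the rule recovered 200 of 200 regions planted to meet it, which checks the code only. With 200 of 2382 bins changed, the bin test recovered 88.1% at 2-fold and 100% at 4- and 8-fold. Of its calls, 9.86% were false. That simulation gave all bins the same relative noise, so its rates need not hold for the real lists.

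Named were the 8 blocks with most regions, the 5 regions with the highest lowest within-list percentile over the 4 MDA-MB-231 repressive lists, the 5 with the highest over the 4 MCF-10A repressive lists, regions with H3K4me3 in both lists of 1 line and none of the other, and the 3 bins with the smallest p per direction. Alternatives were a score of at least 100, 50% cover, other gaps and block sizes, other pseudocounts, all bins with any coverage, unscaled cover, the replicate block and each list left out. Added after seeing the data were leaving out chromosomes 20, 11 and 6 or the dense blocks, regions of 2 to 4 kb, the share of bases, and H3K4me3 shares paired by replicate number.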

Additional observations from a re-analysis of the deposited data

Results flagged for a closer look

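Against the other MDA-MB-231 H3K9me2 regions, the regions with both marks differed in opposite directions for the 2 marks in MCF-10A. Their overlap differed by -14.8 and -15.4 percentage points in replicates 1 and 2 of MCF-10A H3K9me2, and by 30.3 and 25.9 points in replicates 1 and 2 of MCF-10A H3K27me3. The difference between the marks was itself not tested. It depends on the set compared with. MDA-MB-231 H3K27me3 regions that touched a region with both marks, set against those that touched none, differed by 19.3 and 15.96 points for MCF-10A H3K9me2 and by 3.08 and -0.0644 points for MCF-10A H3K27me3.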

How the results depend on the processing

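The difference in MCF-10A overlap between regions with both marks and other H3K9me2 regions kept its direction in all 13 alternatives for each mark, from -20.5 to -12.5 points for H3K9me2 and from 10.4 to 30.3 points for H3K27me3. The number of regions depended on the rule: 29 with a score of at least 100, 178 with 50% cover by H3K27me3, and 574 to 1320 with 1 MDA-MB-231 list left out, the highest without H3K27me3 replicate 1 and 695 without H3K9me2 replicate 2. The 12 dense blocks became 0 with a score of at least 100, 2 with 50% cover, 38 with blocks of at least 3, and 15 to 52 with 1 list left out (52 without H3K27me3 replicate 1, 22 and 20 without H3K9me2 replicate 1 and 2). With a score of at least 100, mean MCF-10A cover of the blocks fell to 0.321% for H3K9me2, against 2.32% with all peaks. For H3K27me3 it fell to 3.76%, against 9.67%. None of the 29 regions left at that score had H3K4me3 in either line, a difference of 0. The regions on chromosome 9 from 67790546 and chromosome 20 from 37435112 had H3K4me3 peaks scoring above 100 but were not among the 29. H3K4me3 bins numbered 427 higher in MDA-MB-231 and 407 higher in MCF-10A. Those higher in MCF-10A became 259 with unscaled coverage and 221 to 447 with 1 list left out, 221 without MCF-10A replicate 1 and 251 without replicate 2. With the replicate block the counts were 386 and 376 bins. Same-numbered lists of the 2 lines had deviations that correlated at r = 0.0895 over bins, so the numbers were not taken to pair the samples. Paired by replicate number, the share of regions with H3K4me3 differed between the lines by -0.456 and -0.911 points, a mean of -0.68 with an exact sign-flip permutation p = 0.5, the smallest possible. The shares in MCF-10A were paired within each list throughout. The 6 named bins kept their call in all 10 alternatives, 4 of which leave 1 list in a line, so that their spread comes from the other line only and the lone list is assumed to vary like it. The cause of these changes was not tested, beyond the shorter lists that a stricter score leaves by construction. Depth is unknown, so a missing peak does not show that a mark is absent.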
